A study of Oryza sativa Indica Group with 4 samples.

Results

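The 35 loci described here encode the enzymes that make and break down starch in rice, and 30 of them had a row in the deposited tables, of 28458 loci with a read. They were chosen by enzyme class from a list of locus identifiers, with earlier results of these data known. The reads and RPKM values of all transcript models of a locus were summed. The plants were 22-day-old seedlings of the indica variety Zhongxian 3037, either wild type or the spontaneous recessive mutant that the labels call tog1 and the study calls togr1-1, a single line with an amino acid substitution in the DEAD-box RNA helicase TOGR1. From the age of 4 days the seedlings of each genotype spent 18 days at 25 °C or 30 °C, under 12 h of light and 12 h of darkness at 80% humidity. Blades of the fourth leaf were pooled to 100 mg and sequenced as 1 library per combination. The 4 libraries are called WT25, WT30, tog25 and tog30 after genotype and temperature. With 1 pool per group there was no replicate, so every comparison below is between libraries, and a difference between pools of plants cannot be told apart from one between conditions.

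Leaf starch is built in the chloroplast during the day and broken down at night. ADP-glucose pyrophosphorylase (AGPase), an enzyme of small and large subunits, makes the sugar nucleotide ADP-glucose. Granule-bound and soluble starch synthases join its glucose into chains, branching enzymes add the branch points, and debranching enzymes (isoamylases and pullulanase) remove branches. For breakdown, glucan water dikinase (GWD) phosphorylates the granule surface, alpha- and beta-amylases and phosphorylase cut the chains, and disproportionating enzymes (DPE) rework the maltose and short chains that are released. The files give locus identifiers without names and 0 of the 35 loci matched the RefSeq gene table, so the loci are called here by their identifiers and by the enzyme classes of the list that chose them. The list holds 2 AGPase small subunits and 4 large subunits, 2 granule-bound and 8 soluble starch synthases, 3 branching enzymes, 4 debranching enzymes, 1 plastidic phosphorylase, 1 GWD, 2 DPEs, 6 alpha-amylases and 2 beta-amylases. The granule-bound synthase LOC_Os06g04200 and the alpha-amylases LOC_Os02g52710, LOC_Os08g36910, LOC_Os08g36900 and LOC_Os09g28400 had no row in either table and were not analysed here.

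Reads counted on transcripts came to between 11959859 and 12371522 per library. The 5 loci fixed as leaf markers, which are Rubisco small subunits and chlorophyll a/b-binding proteins, summed to between 8455 RPKM in WT30 and 20430 RPKM in WT25, where RPKM is the read count scaled by transcript length and by the total reads of the library. Of the 4 glutelin loci fixed as endosperm markers, 2 had a row, and their sum was between 5.03 and 5.90 RPKM in the 4 libraries. Of the 30 starch loci, 22 had at least 200 reads over the 4 libraries and 8 had between 7 and 197, and 1 of these 8, LOC_Os06g12450, passed the test below.

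WT25 stood apart from the other 3 in these loci. The starch loci took 76342 of its reads, or 0.625% (95% Wilson interval 0.620 to 0.629), against 0.362% (0.358 to 0.365) in WT30, 0.378% (0.374 to 0.381) in tog25 and 0.349% (0.345 to 0.352) in tog30. These intervals, like all intervals below, cover counting error only. For sums, AGPase, synthases, branching and debranching enzymes were counted as synthesis, and phosphorylase, GWD, DPEs and amylases as degradation. This split went by class and not by the role of each locus in the leaf. Summed over the 22 synthesis loci with a row, the level was 1375 RPKM in WT25 and between 837 and 842 RPKM in the other libraries. The 8 degradation loci summed to 814 RPKM in WT25 and to between 299 and 395 RPKM in the others. The phosphorylase LOC_Os03g55090 alone held 317 RPKM of this sum in WT25 and between 8.13 and 12.7 RPKM in the others. GWD and the DPEs were also highest in WT25, at 98.5 and 372 RPKM. The alpha- and beta-amylases were not, and the beta-amylases summed to 24.4 RPKM in WT25 and 111 RPKM in WT30. Of the 22 loci with at least 200 reads, 17 had their highest scaled reads in WT25, as did 22.1% of all 13667 loci of that depth. In 9 of the 22 the reads of WT25 were at least 2-fold above those of each other library, a pattern of 137 of the 13667 loci (1.0%). At least 4-fold above each other library were 4 starch loci among the 27 of all loci (0.198%), namely the AGPase subunits LOC_Os09g12660 and LOC_Os05g50380, the debranching enzyme LOC_Os05g32710 and the phosphorylase LOC_Os03g55090. These patterns were chosen after the values had been seen and are descriptions, with no test. In pooled tissue, fewer cells of a kind and less RNA per cell cannot be told apart.

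**Figure D1:**
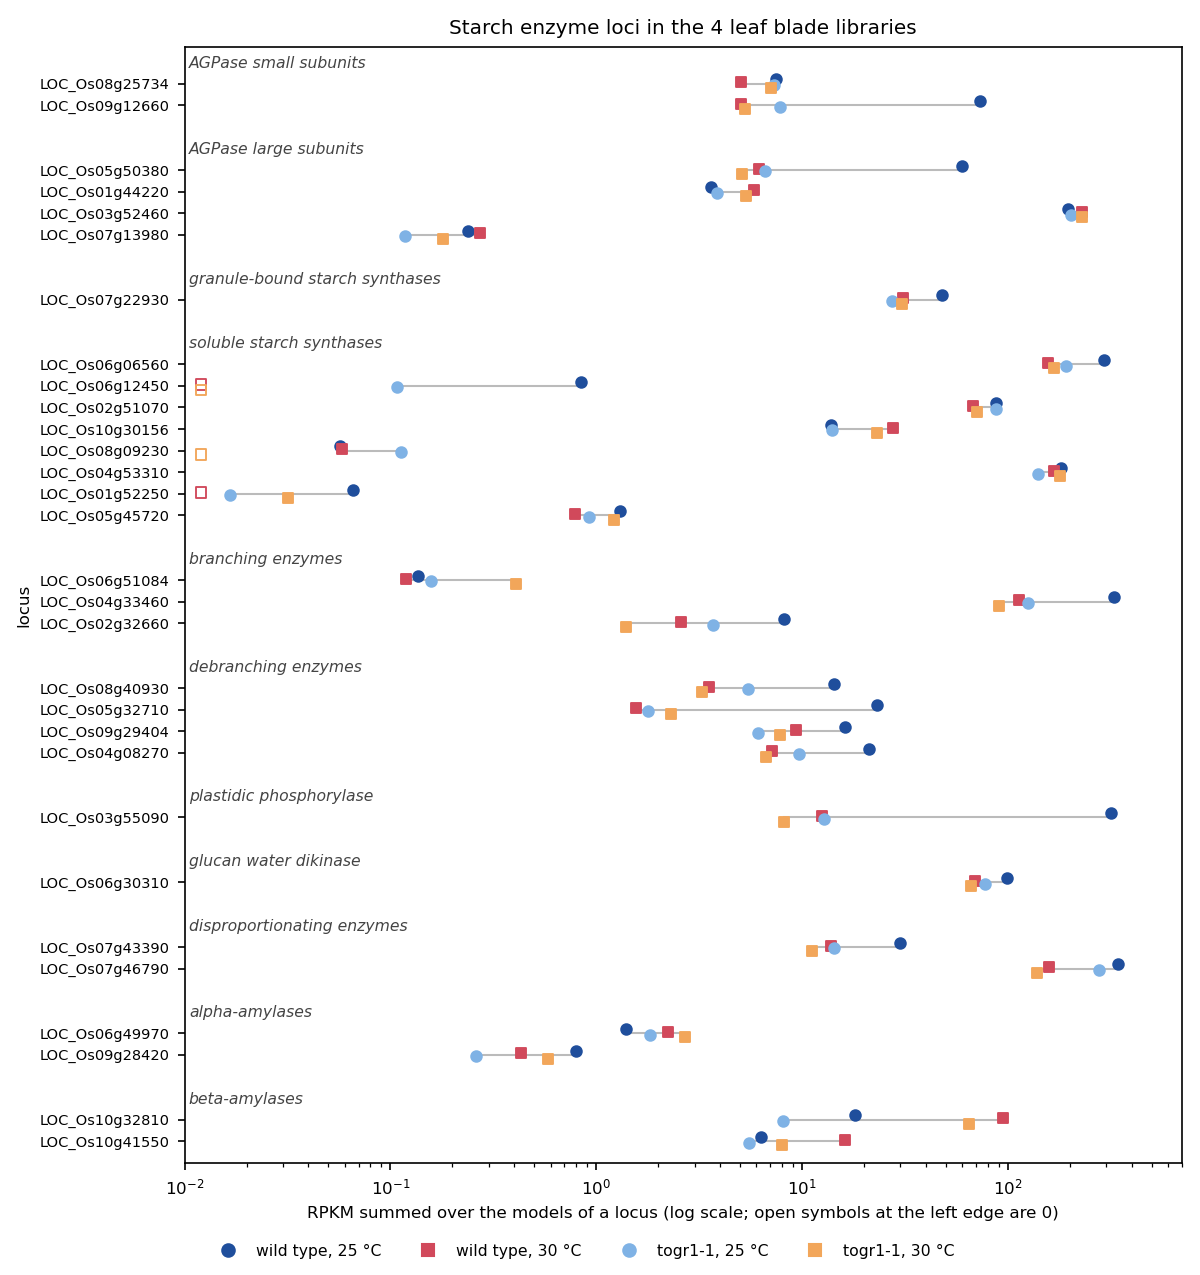
Level of each of the 30 starch enzyme loci in the 4 libraries, as RPKM summed over its models on a log scale, with 1 symbol per library, symbols of a locus spread vertically for sight only, and a grey line from the lowest to the highest value above 0. WT25 (dark blue circles) lies far to the right of the other libraries at LOC_Os03g55090 (317 RPKM), LOC_Os09g12660 (73.3 RPKM), LOC_Os05g50380 (59.6 RPKM) and LOC_Os05g32710 (23.1 RPKM), whereas both 30 °C libraries (squares) lie to the right at the beta-amylase LOC_Os10g32810.

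Libraries were then compared in pairs. The reads of each locus, scaled by total reads, entered an exact binomial test with both sides counted, and a locus was called a DEG where its Benjamini-Hochberg adjusted p-value over all loci did not exceed 0.001 and its scaled reads differed 2-fold or more. One read was added before log2 ratios were taken, and intervals of ratios between 2 libraries are 95% Clopper-Pearson intervals. In the wild type 14 of the 30 starch loci were DEGs between 30 °C and 25 °C, of which 11 fell and 3 rose at 30 °C, against 9.09% of all 26435 loci tested (4.50% lower and 4.59% higher, or 5.25% and 3.79% with TMM scaling factors). The median log2 ratio of the 30 loci was -0.74, beside 0.03 over all loci. In togr1-1 2 of the 30 were DEGs between the temperatures, 1 higher and 1 lower at 30 °C, against 7.87% of 26456 loci (5.19% higher and 2.68% lower, or 4.42% and 3.25% with TMM factors). The median log2 ratio was 0.05, beside 0.04 over all loci. With TMM factors or DESeq2 size factors, 3 starch loci were DEGs between the temperatures in togr1-1, 1 higher and 2 lower at 30 °C. Whether the temperature ratios of the genotypes differed was tested directly, with Fisher's exact test over all 4 libraries and the same thresholds. Intervals of these differences are 95% conditional intervals of the odds ratio, from reads scaled to the smallest library and rounded. The difference passed for 8 of the 30 loci, all with the greater ratio in togr1-1, against 5.27% of 28458 loci (3.46% with the greater ratio in togr1-1). At 25 °C 12 starch loci were DEGs between the genotypes, all of them lower in togr1-1, against 4.70% of 26499 loci (3.15% lower). At 30 °C 1 of 29 was a DEG, lower in togr1-1, against 6.42% of 26435 loci (2.35% lower). Shallow loci seldom reach the thresholds. Among the 22 starch loci with at least 200 reads, 13 were called in the wild type (12.4% of all loci of that depth) and 2 in togr1-1 (10.2%). Between the genotypes 11 were called at 25 °C (5.74%) and 1 at 30 °C (7.37%), and 8 in the test of the responses (8.99%). WT25 enters the wild-type temperature comparison, the genotype comparison at 25 °C and the test of the responses, which therefore share its reads. Because the loci were chosen with earlier results of these data known, the shares beside all loci are descriptions and not independent of that choice.

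**Figure D2:**
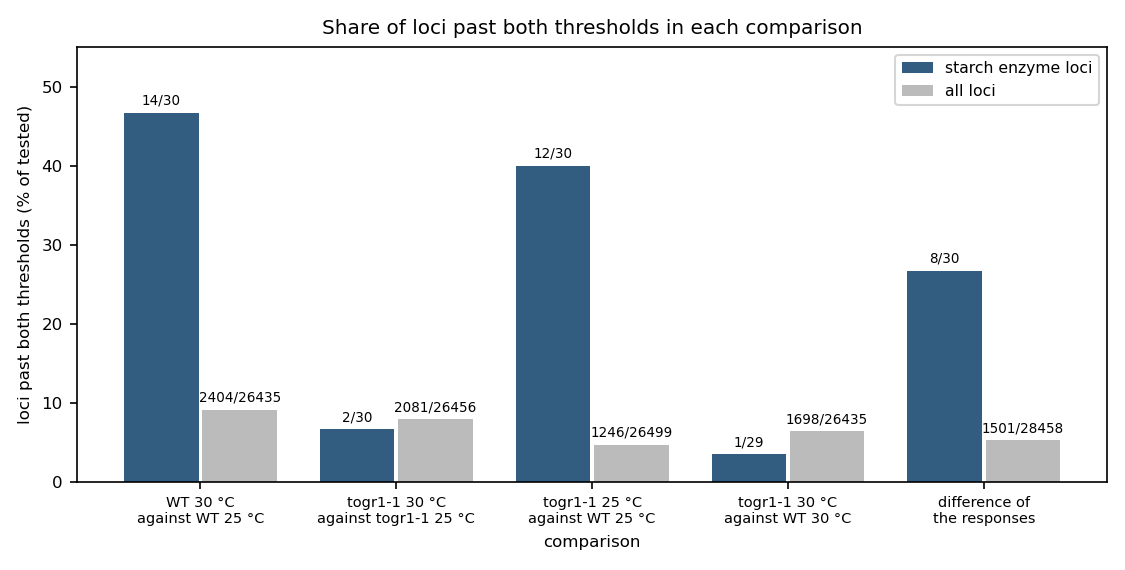
Share of tested loci past both thresholds in each comparison (vertical axis, % of loci tested), for the starch enzyme loci (blue) and for all loci (grey), with the number of loci called and tested above each bar. The starch loci exceed all loci in the 3 comparisons that use WT25 (14, 12 and 8 of 30) and are near all loci in togr1-1 between the temperatures (2 of 30, or 3 of 30 against 7.68% of all loci with TMM factors) and between the genotypes at 30 °C (1 of 29).

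The AGPase small subunits are the catalytic part of the enzyme. LOC_Os09g12660 had 1818 reads in WT25, 123 in WT30, 196 in tog25 and 130 in tog30. It was thus high in 1 library and alike low in the others. It fell 14.5-fold at 30 °C in the wild type (log2 ratio -3.84, interval -4.13 to -3.59). In togr1-1 the log2 ratio was -0.56 (-0.90 to -0.24) and below the threshold. The small subunit LOC_Os08g25734 had 188, 124, 187 and 176 reads in the same order and was a DEG in none of the comparisons. The level of LOC_Os09g12660 was 73.3 RPKM in WT25, or 90.8% of the RPKM of both small subunits, while in the other libraries it was between 42.9% and 51.6%.

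The large subunits modulate the activity of AGPase. LOC_Os05g50380 had 1682 reads in WT25, 171 in WT30, 188 in tog25 and 143 in tog30, again high in WT25 alone, as was the small subunit LOC_Os09g12660. It fell 9.63-fold at 30 °C in the wild type (log2 ratio -3.26, interval -3.50 to -3.04), with a log2 ratio of -0.37 (-0.69 to -0.05) in togr1-1. Between the genotypes at 25 °C LOC_Os05g50380 was 9.06-fold lower in togr1-1 (log2 ratio -3.17) and LOC_Os09g12660 9.39-fold lower (-3.22). Most large-subunit transcripts came from another locus, LOC_Os03g52460, with 5011, 5728, 5242 and 5838 reads in the same order of libraries, equal to between 75.5% and 95.6% of the RPKM of the class. Its log2 ratios of 30 over 25 °C were 0.22 (0.17 to 0.28) in the wild type and 0.18 (0.13 to 0.24) in togr1-1, both intervals ending far below a 2-fold rise. The test of the responses gave -0.04 (-0.12 to 0.04) for it, a difference between the genotypes that is within counting error. LOC_Os01g44220 had 109, 172, 118 and 160 reads, higher at 30 °C by less than 2-fold in both genotypes, and LOC_Os07g13980 had between 4 and 9. Summed RPKM of the large subunits was between 213 and 259 in the 4 libraries, whereas that of the small subunits was 80.8 in WT25 and between 10.1 and 15.1 in the others.

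**Figure D3:**
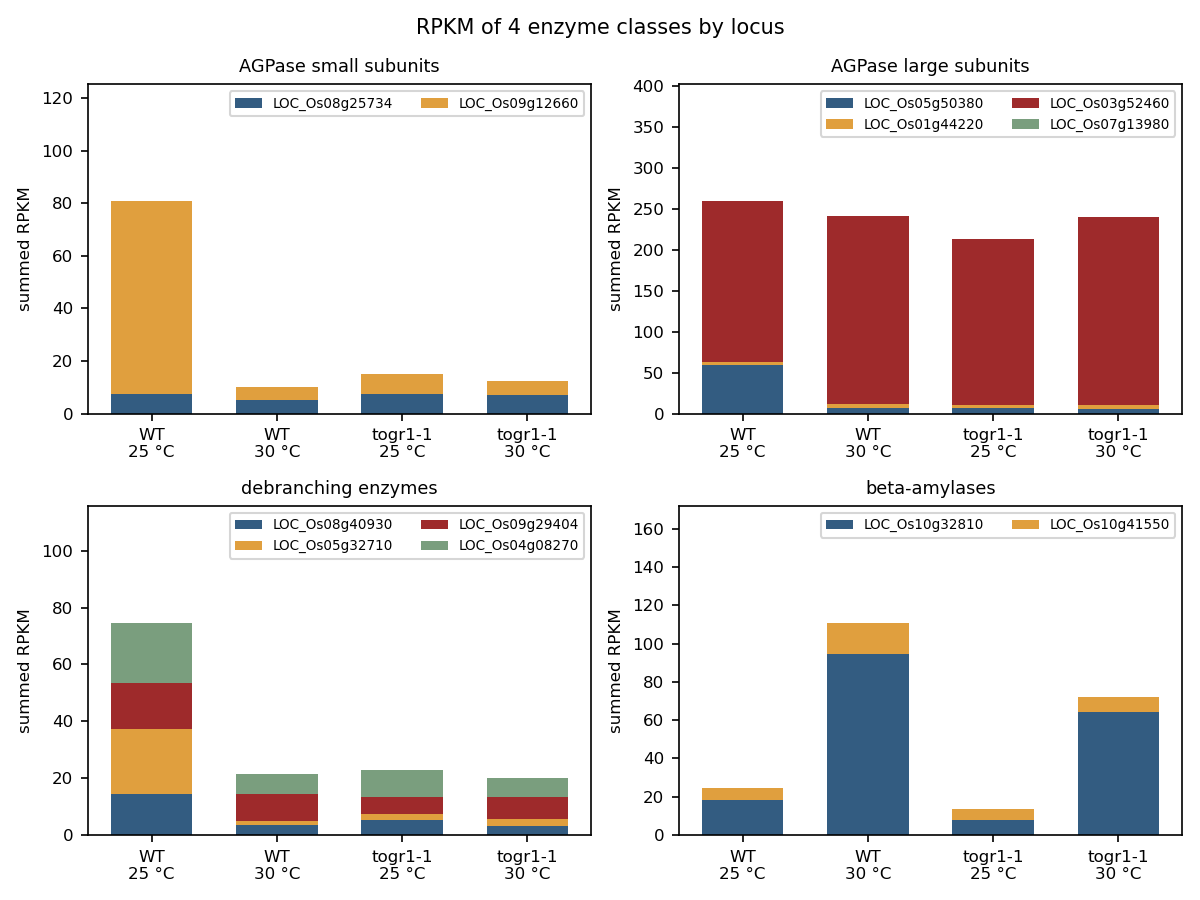
Summed RPKM (vertical axes, from 0) of 4 enzyme classes in the 4 libraries, with each bar divided by locus. In WT25 the small subunits reach 80.8 and the debranching enzymes 74.7 RPKM, well above the other libraries, the large subunits stay between 213 and 259 RPKM, and the beta-amylases are highest at 30 °C in both genotypes.

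Of the 9 starch synthases with a row, 2 were DEGs between the temperatures in the wild type and 0 in togr1-1, against 9.09% and 7.87% of all loci. Among the soluble synthases, which extend the chains of amylopectin, LOC_Os06g06560 had 10271 reads in WT25, 5324 in WT30, 6788 in tog25 and 5790 in tog30. Its wild-type log2 ratio of -0.92 (-0.97 to -0.87) was below the 2-fold threshold, which it passed with DESeq2 size factors, and that of togr1-1 was -0.20 (-0.25 to -0.15). LOC_Os04g53310 was the soluble synthase with the most reads, 11247, 10158, 8816 and 11080 in the same order, and its wild-type and togr1-1 log2 ratios were -0.12 and 0.36. LOC_Os02g51070 was lower at 30 °C by less than 2-fold in each genotype, with 3408 and 2581 reads in the wild type and 3449 and 2742 in togr1-1 (log2 ratios -0.37 and -0.30). The opposite direction was seen for LOC_Os10g30156, with 515 reads at 25 °C and 1012 at 30 °C in the wild type. It rose 2.01-fold (interval of the log2 ratio 0.85 to 1.16), but the call was lost with TMM factors and with DESeq2 size factors (0.92 with each). In togr1-1 it had 528 and 859 reads (0.73, 0.57 to 0.89), and the responses differed by -0.28 (-0.50 to -0.05), short of the threshold. LOC_Os06g12450 had 31 reads in WT25, 4 in tog25 and 0 in both 30 °C libraries. It fell at 30 °C in the wild type and, with 3 reads taken for the 0 of WT30, was at least 10.1-fold lower there as counted, while the interval of its log2 ratio, which includes the counting error of the 31 reads, ends at -2.95 and so allows a smaller fall. Of the other soluble synthases, LOC_Os08g09230 and LOC_Os01g52250 had at most 8 reads in any library and LOC_Os05g45720 between 32 and 54. The granule-bound synthase LOC_Os07g22930, which makes amylose, had 1703, 1087, 990 and 1085 reads, highest in WT25 by less than 2-fold.

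Of the 3 branching enzymes, 2 were DEGs between the temperatures in the wild type and 1 in togr1-1, all lower at 30 °C. Lower DEGs made up 4.50% of all loci in the wild type and 2.68% in togr1-1. LOC_Os04g33460 accounted for between 97.0% and 98.1% of the RPKM of the class and had 5037 reads in WT25, 1704 in WT30, 1958 in tog25 and 1394 in tog30. It fell 2.89-fold in the wild type (log2 ratio -1.53, interval -1.61 to -1.45), and its ratio in togr1-1 was -0.46 (-0.56 to -0.36). At 25 °C it was 2.60-fold lower in togr1-1 than in the wild type, and the responses differed by 1.07 (0.94 to 1.20). The RPKM of this locus rests on a single listed model of 1266 bases, while the models of the other branching enzymes measure 2268 to 4786 bases, so its share of the class depends on that length. LOC_Os02g32660 had 296, 91, 135 and 50 reads in the same order and fell at 30 °C in both genotypes, with log2 ratios of -1.66 (-2.03 to -1.33) in the wild type and -1.39 (-1.90 to -0.93) in togr1-1. Under total-read scaling it was the only starch locus that was a DEG lower at 30 °C in togr1-1. The responses of the genotypes at LOC_Os02g32660 differed by 0.27 (-0.36 to 0.86), within counting error. LOC_Os06g51084 had between 5 and 18 reads.

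All 4 debranching enzymes had their highest reads in WT25. LOC_Os05g32710 had 744 reads there, against 49 in WT30, 58 in tog25 and 74 in tog30. It fell 14.9-fold at 30 °C in the wild type (log2 ratio -3.87, interval -4.34 to -3.48) and had a log2 ratio of 0.37 (-0.14 to 0.90) in togr1-1, the greatest difference between responses among the called starch loci (4.24, 3.59 to 4.96). LOC_Os08g40930 had 658, 159, 254 and 150 reads and fell 4.05-fold in the wild type. Its log2 ratio in togr1-1 was -0.73 (-1.03 to -0.44), lower at 30 °C by less than 2-fold. LOC_Os04g08270 had 515, 170, 239 and 162 reads and fell 2.97-fold in the wild type. In togr1-1 its ratio was -0.53 (-0.83 to -0.24), also short of 2-fold. LOC_Os09g29404 had 675, 385, 258 and 327 reads, with a wild-type log2 ratio of -0.78 (-0.96 to -0.60) that did not reach 2-fold and a togr1-1 ratio of 0.37 (0.13 to 0.61). All 4 were past the thresholds in the test of the responses (5.27% of all loci) and between the genotypes at 25 °C (4.70%). At 25 °C togr1-1 was between 2.18-fold and 13.0-fold lower. Both comparisons use the reads of WT25. Their summed level was 74.7 RPKM in WT25 and between 20.1 and 23.0 RPKM in the other libraries.

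Among the starch loci with reads in every library, the largest change was that of the plastidic phosphorylase LOC_Os03g55090, which lengthens or shortens glucan chains by exchanging glucose with glucose 1-phosphate. It had 11060 reads in WT25, 426 in WT30, 449 in tog25 and 282 in tog30. At 317 RPKM it was among the most abundant starch transcripts of the first library and at between 8.13 and 12.7 RPKM a minor one in the others. It fell 25.4-fold at 30 °C in the wild type (log2 ratio -4.66, interval -4.81 to -4.53). In togr1-1 the ratio was -0.64 (-0.86 to -0.43), below the threshold, and the responses differed by 4.02 (3.76 to 4.29). At 25 °C the locus was 24.9-fold lower in togr1-1 than in the wild type, whereas at 30 °C the log2 ratio of togr1-1 over the wild type was -0.61 (-0.84 to -0.40).

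**Figure D4:**
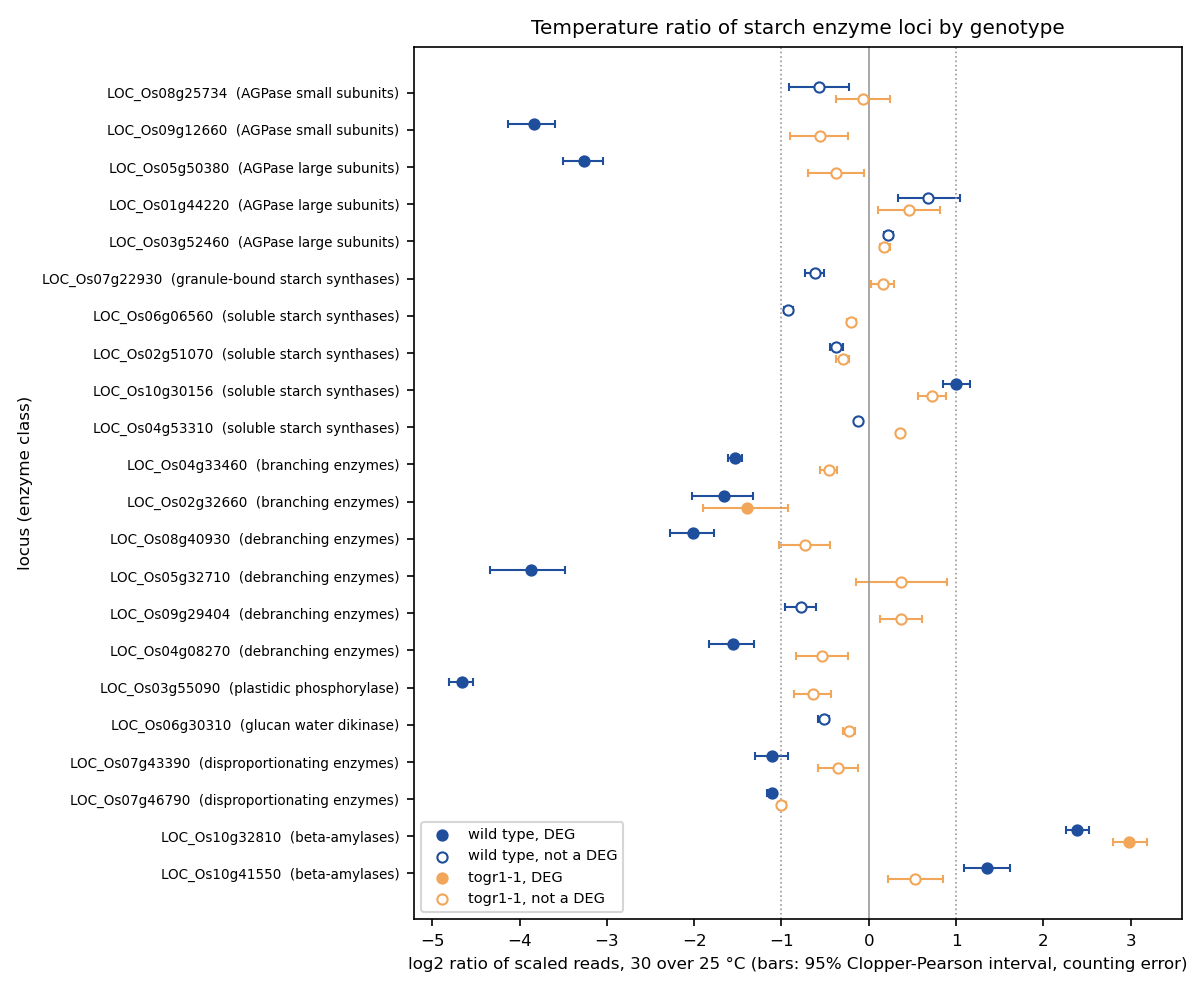
Log2 ratio of 30 over 25 °C in the wild type (blue) and togr1-1 (orange) for the 22 starch loci with at least 200 reads, with 95% Clopper-Pearson intervals, filled symbols for DEGs, and dotted lines at a 2-fold difference. The wild-type values of LOC_Os03g55090 (-4.66), LOC_Os05g32710 (-3.87), LOC_Os09g12660 (-3.84) and LOC_Os05g50380 (-3.26) lie far to the left, the togr1-1 values of the same loci lie between -0.64 and 0.37, and both genotypes lie to the right for LOC_Os10g32810.

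Both disproportionating enzymes fell in the wild type, while GWD stayed short of the threshold in both genotypes. GWD, LOC_Os06g30310, had 5246 and 3595 reads in the wild type at 25 and 30 °C and 4173 and 3496 in togr1-1, with log2 ratios of -0.51 and -0.23 that were below the threshold. The DPE LOC_Os07g46790 was the most abundant starch transcript of WT25 and of tog25 by RPKM, at 342 and 275 RPKM, and had 14524 and 6565 reads in the wild type and 11844 and 5827 in togr1-1. It fell 2.17-fold in the wild type (log2 ratio -1.11, interval -1.16 to -1.07). In togr1-1 the 30 °C reads were 1.99-fold lower (interval of the log2 ratio -1.04 to -0.95), just short of the threshold, and passed the threshold with TMM factors and with DESeq2 size factors. The responses of the genotypes at this locus differed by 0.12 (0.06 to 0.18), an interval that ends far below 2-fold. The other DPE, LOC_Os07g43390, had 774, 351, 374 and 288 reads, fell 2.16-fold in the wild type, and had a log2 ratio of -0.35 (-0.58 to -0.12) in togr1-1.

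Beta-amylases release maltose from chain ends. Both loci had more reads at 30 °C in each genotype. Both were DEGs in the wild type and 1 of them in togr1-1, against 4.59% and 5.19% of all loci higher at 30 °C. LOC_Os10g32810 had 540 reads in WT25, 2770 in WT30, 245 in tog25 and 1908 in tog30, so that both 30 °C libraries were above both 25 °C libraries. It rose 5.24-fold in the wild type (log2 ratio 2.39, interval 2.26 to 2.53) and 7.94-fold in togr1-1 (2.98, 2.80 to 3.19). The responses differed by 0.60 (0.36 to 0.84), below the 2-fold threshold, and at 25 °C the locus was 2.23-fold lower in togr1-1. LOC_Os10g41550 had 165 and 413 reads in the wild type and rose 2.56-fold (1.35, 1.09 to 1.62), against 146 and 207 reads in togr1-1 (0.53, 0.22 to 0.85). The responses differed by -0.82 (-1.24 to -0.40), below the threshold. At 30 °C it was 2.03-fold lower in togr1-1 than in the wild type (log2 ratio -1.01), the only DEG among the starch loci in that comparison. The call was lost with TMM factors (-0.97) and with DESeq2 size factors (-0.95). Alpha-amylases cut inside the chains and were scarce in these leaves, with between 34 and 65 reads for LOC_Os06g49970 and between 5 and 15 for LOC_Os09g28420, and no call in any comparison.

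Other measurements of the same libraries stand beside these results. The 5 leaf marker loci summed to 8455 RPKM in WT30 and to between 15990 and 20430 RPKM in the other libraries. Between the temperatures 4 of the 5 were DEGs in the wild type, all lower at 30 °C, and 0 were DEGs in togr1-1. The remaining locus, LOC_Os09g17740, was lower at 30 °C by less than 2-fold in both genotypes (log2 ratios -0.76 in the wild type and -0.94 in togr1-1). Between the genotypes at 25 °C 0 of the 5 were DEGs. At 30 °C 3 of the 5 were DEGs between the genotypes, all higher in togr1-1. The same 3 passed the test of the responses with the greater ratio in togr1-1, the direction of the 8 starch loci, with differences of 2.81 for LOC_Os01g41710, 1.71 for LOC_Os12g17600 and 1.14 for LOC_Os12g19470. In the sum of the leaf markers the library that stands apart is WT30, which is low, and in the starch loci it is WT25, which is high. The part of the leaf markers in the starch differences was not tested. Starch transcripts can follow the time of day, and the hour of harvest is not given in the sources used here. The 7 loci fixed as circadian clock genes summed to between 76.0 and 95.5 RPKM. Of the 7, 2 were DEGs between the temperatures in the wild type, 1 higher and 1 lower at 30 °C, and 2 in togr1-1, both lower. LOC_Os02g40510 fell in both, with 854 and 211 reads in the wild type and 626 and 150 in togr1-1. Of the 7, 0 were DEGs between the genotypes at 25 °C or in the test of the responses. The differences between responses ran from -0.95 for LOC_Os01g08700 to 0.65 for LOC_Os09g36220. LOC_Os01g08700 was a DEG in togr1-1 only, with log2 ratios of -0.24 in the wild type and -1.19 in togr1-1. LOC_Os11g05930 had between 4 and 14 reads, too few to reach the thresholds readily. The part of the clock, and of the hour of harvest, in the starch differences was not tested. Without replicates, variation between pools can only be assumed. At a biological coefficient of variation of 0.2, edgeR's exact test (adjusted p-value of 0.05 or less) passed 11 of the starch loci in the wild type, against 5.42% of all loci tested. At 0.4 it passed 4, which were LOC_Os03g55090, LOC_Os05g32710, LOC_Os06g12450 and LOC_Os09g12660, against 0.503%. Between the genotypes at 25 °C it passed 5 starch loci at 0.2 and 2 at 0.4, against 1.85% and 0.294% of all loci. In togr1-1 between the temperatures it passed 1, LOC_Os10g32810, at 0.2 and 0 at 0.4, against 3.83% and 0.178%. Between the genotypes at 30 °C it passed 0 starch loci at either value, against 3.78% and 0.541%.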

How the data were processed

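Leaf blade RNA of 4 samples, 1 per genotype and temperature, was sequenced on the Illumina HiSeq platform. The authors deposited raw counts of reads per transcript model, without normalization, and RPKM values, which the columns of reads, model lengths and library totals gave back to within 4.91e-06%. The aligner, genome build and annotation release are not given in the sources used here. The deposited ratio, p-value and FDR columns compare the temperatures and were not used.

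Reads and RPKM were summed by locus, with 0 reads where a model was absent from the table of a genotype. Tests ran over all loci with a read, with the thresholds stated in the text, and were tested on simulated data with known changes. The simulated data held counting error only, so they cannot show how the calls hold up under variation between pools. Fisher's exact test used reads scaled to the smallest library and rounded. Totals between 11959859 and 12371522 reads keep differences in depth small, and each read was taken as an independent count. The members and lists were chosen with earlier results of these data known. Values are printed for each locus called in any comparison, the most abundant of each class and those with at least 200 reads, with others in ranges. Reads shared between near-identical or overlapping genes could have been divided in ways the counts do not show. As alternatives, scaling by TMM or by DESeq2 size factors was tried, as were a minimum of 10 reads, the model with the most reads of a locus, folds of 1.5 and 4, a pseudocount of 5, and edgeR with an assumed coefficient of variation of 0.2 or 0.4. No sequences were printed. Versions were Python 3.11.15, numpy 2.4.6, scipy 1.17.1, pandas 2.3.3, matplotlib 3.10.9, R 4.3.3, edgeR 4.0.16 and DESeq2 1.42.0.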

Additional observations from a re-analysis of the deposited data

Results flagged for a closer look

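At 8 starch loci the temperature response differed between the genotypes past the thresholds of Fisher's exact test, which compares libraries and not plants. In each the log2 ratio of 30 over 25 °C was greater in togr1-1 than in the wild type. The differences of the log2 ratios were 3.28 for the AGPase small subunit LOC_Os09g12660 and 2.89 for the large subunit LOC_Os05g50380. For the branching enzyme LOC_Os04g33460 the difference was 1.07. The debranching enzymes gave 1.28 for LOC_Os08g40930, 4.24 for LOC_Os05g32710, 1.15 for LOC_Os09g29404 and 1.03 for LOC_Os04g08270. For the phosphorylase LOC_Os03g55090 it was 4.02. All 8 share WT25, where each had its highest reads.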

How the results depend on the processing

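With 1 library per group, no library could be left out. No paired analysis was possible because no group has replicates. The 8 calls of the test of the responses, and the 12 between the genotypes at 25 °C, were the same loci with TMM factors, DESeq2 size factors, a minimum of 10 reads and the model with the most reads of each locus. All 37 called log2 ratios kept their direction under the pseudocount of 5, these scalings and that model, and 2 of the 37 lost their call with each scaling. At 30 °C the 1 call between the genotypes became 0 with TMM factors and 0 with DESeq2 size factors, where 15 and 16 starch loci had an unadjusted p-value under 0.05 in the exact test on reads. The unadjusted counts here and below have no share over all loci beside them, so they are no result about the starch loci. With a fold of 4 the calls were 7 in the wild type (3.10% of all loci), 1 in togr1-1 (2.45%), 5 between the genotypes at 25 °C (1.60%), 0 at 30 °C (2.77%) and 4 in the test of the responses (1.98%). With a fold of 1.5 they were 18 in the wild type (16.0% of all loci), 6 in togr1-1 (14.2%), 14 between the genotypes at 25 °C (9.89%), 2 at 30 °C (10.8%) and 13 in the test of the responses (2560 of 28458 loci). Of these 13, 12 had the greater ratio in togr1-1 and 1, LOC_Os10g41550, the smaller (-0.82). Under edgeR's exact test with an assumed coefficient of variation of 0.2, 1 starch locus passed in togr1-1 (of 1013 loci in all), 5 between the genotypes at 25 °C (of 490) and 0 at 30 °C (of 1000), where 2 had an unadjusted p-value under 0.05. With 0.4 the counts were 4 of 133 loci in the wild type, 0 of 47 in togr1-1 (2 unadjusted), 2 of 78 between the genotypes at 25 °C (LOC_Os03g55090 and LOC_Os05g32710) and 0 of 143 at 30 °C (0 unadjusted). Depth limits the 8 loci with under 200 reads.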
